A study of Caenorhabditis elegans with 2 samples.

Results

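The peaks described here are the autosomal DAF-19 ChIP peaks whose summits lay inside protein-coding exons and outside promoters. They numbered 553 of the 3086 called peaks of the series (17.9%). The members were chosen by measured values: a peak of the ranked list for both replicates was called when its column 12 was at least 1.3. That column is the irreproducible discovery rate (IDR) on a −log10 scale, and the minimum corresponds to an IDR of about 0.05. A summit also had to lie on an autosome, more than 200 bp from any tRNA, snRNA, snoRNA or rRNA gene, outside the promoter windows of all protein-coding transcripts (1000 bp before to 200 bp after the start), and inside an annotated protein-coding exon. Coding sequence held 468 of the summits (84.6%, 95% Wilson interval 81.4 to 87.4), 3' UTRs held 82 (14.8%, 12.1 to 18.03) and 5' UTRs held 3. These intervals cover counting error only.

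All values came from 1 group, whole L4 larvae of Caenorhabditis elegans strain OP794, 48 hours old and synchronised as starved L1 animals after bleaching. The strain carries the integrated transgene wgIs794, a daf-19 copy with TY1, EGFP and 3xFLAG tags together with a wild-type unc-119 copy, in an unc-119 (tm4063) mutant background. An antibody to GFP was used on chromatin sheared by sonication to 200 to 800 bp, in 2 replicates, which the labels call biological without saying how the cultures were grown. The labels point to a possible control experiment, which was not analysed here, and the files give no read counts, so the depth of each replicate is unknown. Whole larvae mix all cell types, and strong signal in few cells and weak signal in many cannot be told apart.

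DAF-19 is the RFX-family transcription factor of C. elegans, best known for switching on genes of sensory cilia through a promoter element called the X-box. Worm sensory neurons are the ciliated cells of the hermaphrodite, and DAF-19 also has isoforms in other neurons. The X-boxes of ciliary genes usually lie close upstream of the gene start, whereas the peaks here lie in exons and outside the promoter windows used.

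The sequences at the summits of strong members are shown first, because the strongest members carry most of what follows. Each run is 30 bases of the forward strand of the RefSeq WBcel235 (ce11) genome, 5′ to 3′, with the summit base in capitals. They come from 6 genes, with 4 summits in coding sequence and 2 in 3' UTRs.
lelo-2, 3' UTR, chrIII:1419892-1419921: aacctgagaacgagaGaaaaaaaataaaat
rpl-3, coding, chrIII:3868453-3868482: ccaagaagaaggcttTcaccaagtacgcca
dos-3, coding, chrIII:835973-836002: gataatagtatttgtTagcatgatcgcgat
ubq-1, coding, chrIII:5941536-5941565: acacttgaagtcgaaGcttccgacacgatc
kin-18, 3' UTR, chrIII:6123838-6123867: aaatacgtgcaatacTtctcaactataccc
nrde-2, coding, chrII:10247330-10247359: caacttgctgaaaaaCagagtcattctgca

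The X-box consensus was then searched, on either strand, in the summit base and the 100 bp to each side of it. It matched at 10 of 553 members (1.81%, 95% Wilson interval 0.985 to 3.30), against 139 of 9125 windows (1.52%, 1.29 to 1.80) of the same length laid on a grid over the exonic sequence open to the selection. The intervals overlap, so the motif was about as frequent at the members as in exonic sequence at large. 3 of the strongest members with a match are shown with the match in capitals. In each of them the match lay 59 to 76 bp from the summit. C26C6.8, with a signal of 101.8, also had a match and is not shown. Closer matches were found in weaker members named after their values were seen, at 14 bp from the summit in mua-3 (95.4) and at 18 bp in jac-1 (70.2).
arrd-19, coding, chrV:3314316-3314345: gtatatggATATTCATGGGGACagtttcac
sec-31, coding, chrIV:11370551-11370580: cggatccaGTCTCCTTGAAGACttccaaca
akap-1, 3' UTR, chrIII:6366547-6366576: tcgttgttGTTTTTAAGAAAACacacccac

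A second search used GTTCGANNC, the core of the B box, an internal promoter element of tRNA genes read by RNA polymerase III factors. It matched at 19 members (3.44%, 2.21 to 5.30), against 171 of the 9125 grid windows (1.87%, 1.62 to 2.17). Coding sequence held 18 of the 19, or 3.85% of coding members (2.45 to 5.997). The 3 strongest members with a match are shown, with the match, here on the reverse strand, in capitals. In klp-7, a kinesin gene, the centre of the match lay 4 bp from the summit. In arf-1, which encodes a small GTPase of vesicle traffic, it lay 67 bp away, and in lin-13, a zinc-finger gene of the synMuv group, 36 bp away. All members lay at least 254 bp from an annotated small RNA gene.
arf-1, 3' UTR, chrIII:5717444-5717473: cttctatttcGTATCGAACactgttttgct
klp-7, coding, chrIII:10810705-10810734: tgcgcagataGTCTCGAACacccgtgtcgc
lin-13, coding, chrIII:7707808-7707837: aaaaagtcttGAATCGAACacatccttcct

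The third motif, the repeat GAGAGA, was present at 64 members (11.6%, 9.17 to 14.5), against 9.91% of grid windows (9.31 to 10.5), 17.1% of promoter peaks, 18.8% of intron peaks and 20.96% of intergenic peaks. In lelo-2 it covered the summit base itself, as its sequence shows. A GAGAGA run was also found at lag-1, the transcription factor of Notch signalling, 37 bp from the summit, and at mcm-3AP, 89 bp from it. Motif matches are descriptions of letters in these windows.

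Members were mostly weak peaks. Every one was listed with the same width of 380 bp, and the shape of the peaks was not measured. The pooled signal, the authors' column 7 of unstated scaling, had a median of 91.7 (quartiles 83.9 and 102). Pooled signals between 70 and 110 were found at 420 members (75.9%). Coding members had a median of 91.1 and 3' UTR members 95.4, against 96.4 for promoter peaks, 93.1 for intron peaks, 93.9 for intergenic peaks and 133 for peaks at small RNA genes. The upper ends differed more than the medians: 6 members (1.08%) exceeded 150, against 9.64% of promoter peaks, 3.55% of intron peaks, 6.75% of intergenic peaks and 39.0% of small RNA peaks. Likewise 109 members (19.7%) reached a column 12 of 2, an IDR of 0.01, against 37.2% of promoter, 19.3% of intron and 25.5% of intergenic peaks. Of the 100 strongest ranked peaks of the series 1 was a member, and of the 1000 strongest 108 were. Signal and IDR took part in choosing all of these classes, so no test was made between them.

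**Figure D1:**
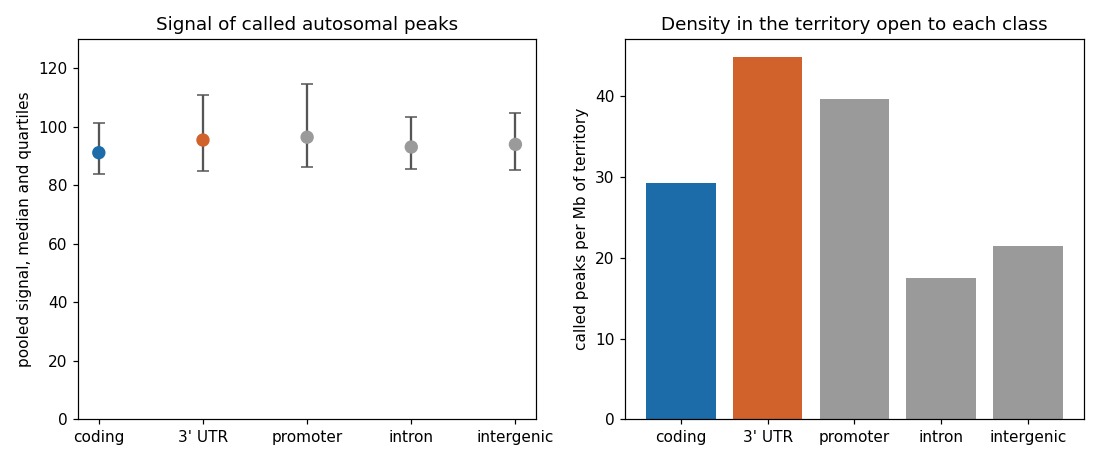
Called autosomal peaks away from small RNA genes, by place of the summit. Left, pooled signal (authors' column 7), point at the median and bars to the quartiles; right, called peaks per Mb of the territory that the selection leaves open to each place. Coding and 3' UTR members have medians of 91.1 and 95.4, and densities of 29.2 and 44.9 per Mb.

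The members were a small part of what was ranked. All ranked peaks were called at a rate of 2.62% (3086 of 117986), and ranked autosomal exonic peaks outside promoters and small RNA genes at 2.37% (553 of 23365). Since the same column 12 made the calls, these rates describe the choice. Among ranked peaks 3.79% of those in 3' UTRs were called (82 of 2164), against 2.24% in coding sequence (468 of 20933) and 1.12% in 5' UTRs (3 of 268). The 3 members just inside the minimum were cone-1, with a column 12 of 1.30398 and a signal of 75.7, ttll-4 with 1.30248 and 77.3, and pitr-4 with 1.30232 and 77.6. Just outside were tre-5 with 1.299995 and 85.6, R04B5.6 with 1.2995 and 88.8, and F54F2.9 with 1.29785 and 90.5. The signals of the 3 peaks left out were higher than those of the 3 kept, so column 12 and not the pooled signal drew this line.

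The density of members differed with the part of the exon. Coding sequence open to the selection covered 16.02 Mb and held 29.2 members per Mb, and 3' UTR sequence covered 1.83 Mb and held 44.9 per Mb. In other words 3' UTRs made up 14.9% of the coding and 3' UTR members (82 of 550, 95% Wilson interval 12.2 to 18.1) but 10.2% of that territory. Promoter windows held 39.7 called peaks per Mb, intergenic sequence 21.5 and introns 17.5. With members that overlap a stronger called peak left out, the densities were 38.9 per Mb in 3' UTRs and 27.1 in coding sequence. The share of 3' UTR members was highest at the top of the ranking: 9 of the 20 strongest members lay in 3' UTRs, 17 of the 50 strongest and 23 of the 100 strongest.

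Within the coding sequence the members were spread along its length. Cut into 5 equal stretches from start to stop, it held 65, 105, 91, 100 and 107 members, and the corresponding shares of open coding territory were 12.1%, 22.2%, 23.2%, 22.4% and 20.1%. The median coding summit lay 1279 bp from the nearest annotated start of any protein-coding gene, and 73 of 468 lay within 500 bp of the start of their own gene. Host exons had a median length of 323.5 bp, against 324 bp for coding territory. In 3' UTRs the median summit lay 142.5 bp before the transcript end, and at 42 of 82 (51.2%, 95% Wilson interval 40.6 to 61.7) a gene on the opposite strand ended within 500 bp, against 33.4% of 3' UTR positions open to the selection. Members in 3' UTRs were thus more often in tail-to-tail gene pairs than 3' UTR sequence in general.

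By chromosome, members were densest on III, with 34.0 per Mb of exonic territory, closely followed by IV with 33.4, and sparsest on II, with 27.2. In 3' UTRs the range was wider, with 67.2 per Mb on III (24 members) and 22.2 per Mb on II (8 members). Chromosome III also held 11 of the 20 strongest members and 5 of the 6 above a signal of 150, and 29.9% of its members reached a column 12 of 2, against 11.6% to 20.6% on the other autosomes. Counts per chromosome are small, and this pattern was noticed after the values were seen.

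The strongest member lay in the 3' UTR of lelo-2 (III:1419717-1420096, ce11), in the last of 7 exons, 52 bp before the transcript end and 464 bp from the nearest annotated start, which belongs to the same gene. Its signal was 139 in replicate 1 and 160 in replicate 2, and the pooled value was 318. By signal, both replicates ranked it among their 100 strongest peaks, at 64 and 25. In the replicates' own lists, however, its column 12 was 0.172 for replicate 1, below the minimum of 1.3, and 3.72 for replicate 2. In pooled signal this member stood apart from all others, the next of which had 186. A promoter window reaching 2000 bp before and 500 bp after the start would take in its summit, and those of lmd-2, nrde-2 and Y38F1A.1 among the 20 strongest members.

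That next member lay in exon 2 of rpl-3, a protein of the large ribosomal subunit (III:3868278-3868657), with 77.6 in replicate 1 and 105 in replicate 2. Its summit lay 893 bp from that of the strongest peak of the whole series, in the rpl-3 promoter window, which had a pooled signal of 781.7. A second rpl-3 member further downstream (III:3868850-3869229) had a pooled signal of 82.9, with 66.5 in replicate 1 and 43.8 in replicate 2, and another, pooled 38.8, was a shoulder of it. The gene therefore carried signal over its body as well as upstream, in both replicates.

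Other strong coding members were found in dos-3, which encodes a protein of the DOS-motif family linked to Notch signalling, with 115.2 in replicate 1 and 57.3 in replicate 2. The polyubiquitin gene ubq-1 had 79.0 and 90.1 in replicates 1 and 2, and its coding sequence is built of ubiquitin repeats: the summit window had 11 further copies in the genome at 80% identity and 1 at 90%. The LysM-domain gene lmd-2 had 79.6 and 82.0. Pooled signals of these members were 176, 168 and 167. Replicate 1 was about double replicate 2 only in dos-3 among the 3.

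The nuclear RNA interference gene nrde-2 carried 3 separate members along its coding sequence, with pooled signals of 142, 81.5 and 87.6. The strongest (II:10247155-10247534, exon 3 of 13) had 64.8 in replicate 1 and 65.9 in replicate 2. At the uncharacterised gene Y38F1A.1 the pooled signal was 141.5, but only replicate 2 had a ranked peak over the summit, with 68.8. In lag-1, the DNA-binding factor of the Notch pathway, replicates 1 and 2 gave 79.4 and 54.7. The remaining genes among the 12 strongest coding hosts were plin-1, a lipid-droplet perilipin, with a pooled signal of 134, miz-1 with 133, pals-26 with 132 and the homeobox gene ceh-79 with 131.

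A ciliary gene was also among them. The coding member of pkd-2 (IV:15232974-15233353, exon 2 of 9), which encodes a polycystin channel of male sensory cilia, had 64.9 in replicate 1 and 64.8 in replicate 2, with a pooled value of 139.9. The summit lay 1829 bp from the nearest annotated start, and no X-box match was found in its window. The pkd-2 promoter window held a called peak of its own, with a weaker pooled signal of 91.8.

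In 3' UTRs, kin-18, a protein kinase of the TAO family, had 99.5 in replicate 1 and 70.5 in replicate 2, and arf-1 had 87.7 and 42.9. The germline RNA helicase gene cgh-1 had 77.8 and 81.7. Their pooled signals were 166, 142 and 141.5. The other strong 3' UTR hosts were F34D10.4 with a pooled signal of 140, F37A8.5 with 139, car-1 with 136 and rps-17 with 133. Of these car-1 encodes an RNA-binding partner of cgh-1 in germline granules, and rps-17 a protein of the small ribosomal subunit. The 3 members in 5' UTRs, in ZK484.6, Y54G2A.11 and W03B1.3 and named here after their values were seen, had pooled signals of 109, 91.6 and 90.1.

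**Figure D2:**
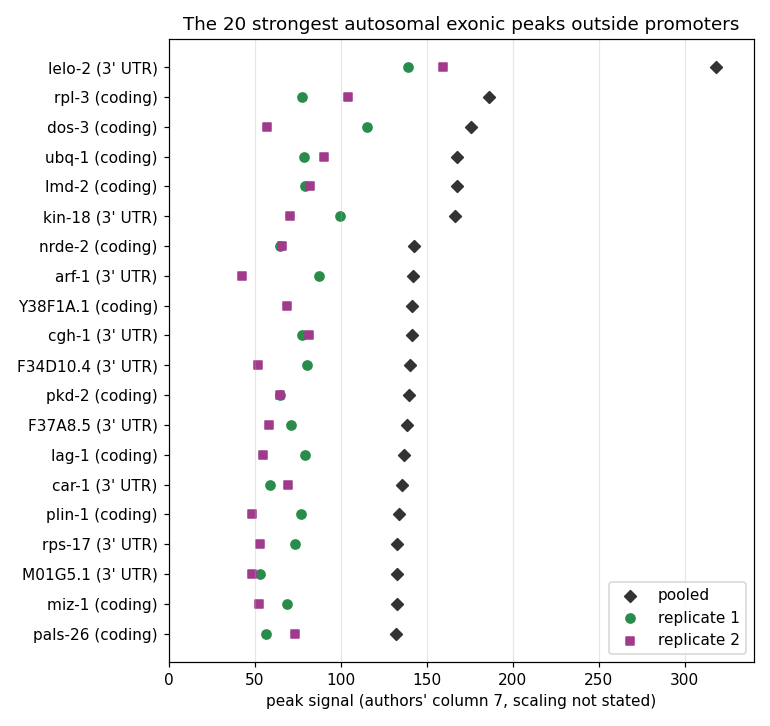
The 20 strongest members, from the strongest at the top, with pooled signal (diamonds) and the strongest ranked peak over the summit in replicate 1 (circles) and replicate 2 (squares), on the authors' column 7 scale. Replicate 1 is the higher of the pair at 11 members and replicate 2 at 8, and Y38F1A.1 has a value in replicate 2 only.

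A ranked peak of both replicates covered the summit at 504 of 553 members (91.1%), a peak of replicate 1 alone at 26, of replicate 2 alone at 14 and neither at 9. The call itself rests on both replicates, and the share was alike in the other classes, at 91.95% of promoter peaks, 91.4% of intron peaks, 91.3% of intergenic peaks and 94.3% of small RNA peaks. Median signals were 50.1 in replicate 1 and 44.1 in replicate 2, and replicate 1 was the higher at 340 of the 504. The ratio of replicate 1 to replicate 2 had a median of 1.14, and 430 of the 504 (85.3%) lay within 1.5 times of each other. Since the scaling of the signal is not stated, this ratio cannot be read as a difference in binding.

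Across the 493 members without a stronger overlap, Spearman's rho of the replicate signals was −0.09. Over all members with both values it was −0.10, against 0.31 for promoter peaks, −0.05 for intron peaks, 0.18 for intergenic peaks and 0.69 for small RNA peaks. The points share the same 2 libraries and were chosen on the ranks of both, which removes peaks low in both and shapes this value. Only 15 members overlapped the thresholded list made from replicate 1 alone, 11 that of replicate 2, and 2 both (0.362%). The share in both lists was higher in the other classes. It was 6.69% of promoter peaks, 2.54% of intron peaks, 5.06% of intergenic peaks and 33.8% of small RNA peaks. The most unequal pairs were arrd-19, an arrestin-domain gene, with 78.2 in replicate 1 and 34.5 in replicate 2, and M01H9.3 with 76.5 and 35.03. In the other direction lpd-3 had 38.8 and 67.5, and F25B5.5 had 51.7 and 85.6. No member reached a factor of 2 in favour of replicate 2, and 6 did in favour of replicate 1.

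**Figure D3:**
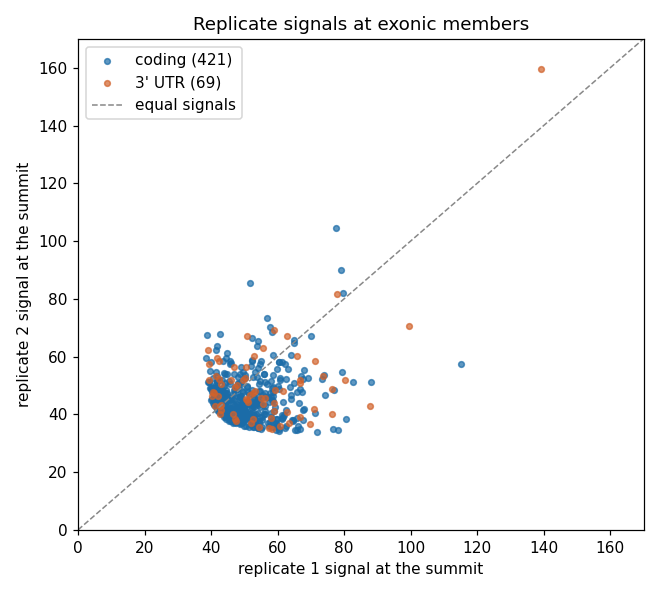
Signal of replicate 2 against replicate 1 (authors' column 7) at coding and 3' UTR members without a stronger overlapping peak, each point 1 member. Points crowd at 40 to 60 on both axes with an empty lower left corner, and lelo-2 stands alone at 139 and 160.

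Some members were shoulders. A stronger called peak overlapped 45 of the 553 (34 coding and 11 in 3' UTRs), with summits 199 to 240 bp apart. The median pooled signal was 11.4 at the shoulders and 90.3 at their stronger neighbours. At 43 of the 45 the column 12 value of the shoulder was within 0.01 of that of its neighbour, so they passed the minimum together. The stronger neighbour was itself a member in 29 cases, an intron peak in 8, an intergenic peak in 4 and a promoter peak in 4. The only ribosomal protein hit of rpl-4 (pooled 5.82) and the only hit of the glycolytic gene enol-1 (7.68) were of this kind. Among members without a stronger overlap the lowest pooled signal was 34.96.

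The 553 members fell in 506 of the 15764 autosomal protein-coding genes with exonic sequence open to the selection, which is 3.21% of genes. Members per gene were counted by host name, with a summit in overlapping exons of 2 genes under a joint name. This count misses iars-2, with a coding member (97.5) and a 3' UTR member shared with clec-87 (130), neither a shoulder. It also misses T19A5.3, whose 3' UTR member shared with unc-23 had a shoulder in T19A5.3. By this count more than 1 member fell in 45 genes, but in only 20 after shoulders were left out. These were cbd-1 (a chitin-binding eggshell protein), cest-17, DH11.2, fmo-4 (a flavin monooxygenase), hpd-1, klp-19 (a spindle kinesin), kpc-1 (a furin-like convertase), lact-3, mei-1 (the katanin of the meiotic spindle), mig-22, miz-1, mup-4, myo-1, noca-1 (a microtubule organiser), nrde-2, ptr-2, R02F2.1, rpl-3, sma-1 (a spectrin) and unc-22. Only miz-1 and nrde-2 had 3 such members each. The miz-1 members had pooled signals of 133 and 129 near the end of the gene and 71.4 at a distance from them. In the other 25 genes, C02G6.2, C14A4.8, C31H1.1, F54F12.1, T06D8.10, W06H8.6, acs-18, cima-1, dhc-3, fbxa-152, flad-1, glb-22, lmd-5, mdt-31, ptr-23, ret-1, rpa-1, snpn-1, sod-4, sra-6, srh-69, tag-89, tbg-1, tbx-35 and ubq-1, the further member was a shoulder.

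Host genes had a called summit in a promoter window more often than other genes. All called peaks were counted here, including those near small RNA genes that the promoter peaks above leave out. Among the 506 hosts, 79 had a called summit in a promoter window of their own (15.6%, 95% Wilson interval 12.7 to 19.03), against 846 of 15258 genes without a member (5.54%, 5.19 to 5.92). For hosts of 3' UTR members the share was 22.6% (19 of 84) and for hosts of coding members 14.4% (62 of 431). Without shoulders it was 15.1% of hosts (74 of 490). Chosen after their values were seen, the strongest such summits belonged to rpl-3 (781.7), rpa-2 of replication protein A (368) and tmem-107, a transition-zone gene of the cilium (305). The summit in the tmem-107 window lay by a snoRNA gene and was classed with the small RNA peaks, not the promoter peaks. Gene length and the distance between neighbouring peaks were not matched between the compared genes, and no test was made.

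Grouped by function, hosts were counted in 21 gene lists and read against the 3.21% of all genes. Among ribosomal protein genes 5 of 44 had a member (rpl-3, rps-17, rpl-41.2, rpl-13 and the shoulder in rpl-4, the last named after its value was seen), or 4 without shoulders. Among chaperones it was 6 of 60, with the chaperonin subunit cct-6 at a pooled signal of 124, the cytosolic hsp-90 at 109 and the endoplasmic reticulum protein enpl-1 at 104. In muscle and actin genes it was 5 of 30, namely the myosins myo-1 (119 and 75.2) and myo-3 (86.2), twitchin unc-22 (89.1 and 82.9), unc-89 (88.2) and act-2 (81.8). Germline and egg-coat genes counted 7 of 76, led by cgh-1, the P-granule gene pgl-1 (124), egg-3 (106) and cpg-4 (103). Basement membrane and matrix genes had 2 of 12, mua-3 (95.4) and mig-6 (87.6).

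Long genes offer more exonic sequence, so members per Mb of open territory were set beside these counts. Over all genes the value was 30.4 per Mb. Muscle and actin genes had 43.3 per Mb, germline and egg-coat genes 62.5, chaperones 91.8 and basement membrane genes 16.9. Ribosomal protein genes had 560 per Mb, but from 7 members, 3 of them in rpl-3, on 0.0125 Mb. The basement membrane list thus stood above the background by genes and below it by length.

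Genes of RNA polymerase and RNA processing had 4 of 53 (hrpf-1, rsp-1, prp-8 and hrpf-2), glycolysis and mitochondrial energy 3 of 46 (ucr-2.3, pfk-1.2 and enol-1), translation factors and tRNA synthetases 4 of 65 (iars-2, ears-1, wars-1 and clu-1), and ubiquitin and proteasome 4 of 81 (ubq-1, uba-1, rpn-2 and rpt-2). In that order they had 48.9, 82.6, 56.4 and 56.0 members per Mb, above the 30.4 of all genes, on few members each. Near the background by count of genes were chromatin factors with 3 of 82 (swsn-7, lin-13 and set-4), synapse and neuropeptide genes with 7 of 194, led by the ion channel genes lgc-31 (100.1) and unc-49 (99.5), then ida-1 and unc-41, and ciliary genes with 2 of 63. The 2 ciliary genes were pkd-2 and tmem-107, whose 3' UTR member (pooled 125, with 66.7 in replicate 1 and 50.8 in replicate 2) lay where its exon overlaps that of the chaperone gene dnj-12. At 3.17%, the share of ciliary genes with an exonic member was close to the 3.21% of all genes, but by length their 16.3 members per Mb were below the 30.4 of all genes, on 2 members. Chromatin factors likewise had 18.6 per Mb, on 3 members, and synapse and neuropeptide genes 28.8.

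Large gene families, among them sensory and environmental genes, were below the background. Members were found in 15 of 1320 chemoreceptor genes (1.14%), led by str-206, srj-32, srt-3 and srj-54 at 102 to 109.9, with 17.3 members per Mb. The transcription factor list, defined by gene symbol and without lag-1, had 8 of 385, led by ceh-79, nhr-136 (112), nhr-21 (104) and nhr-212. Detoxification enzymes had 4 of 202 (ugt-33, ugt-17, cdr-4 and ugt-45). Immunity and lectin genes had 2 of 314 (clec-166, and clec-87 where its exon overlaps that of iars-2). F-box, MATH and BTB families had 2 of 417 (fbxa-152 and fbxa-201) and cuticle collagens 1 of 143 (col-115). No member was counted among 11 histone genes, 36 sperm protein and peptide genes or the 1 vitellogenin gene. Counts of this size have wide counting error, and no list was tested.

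**Figure D4:**
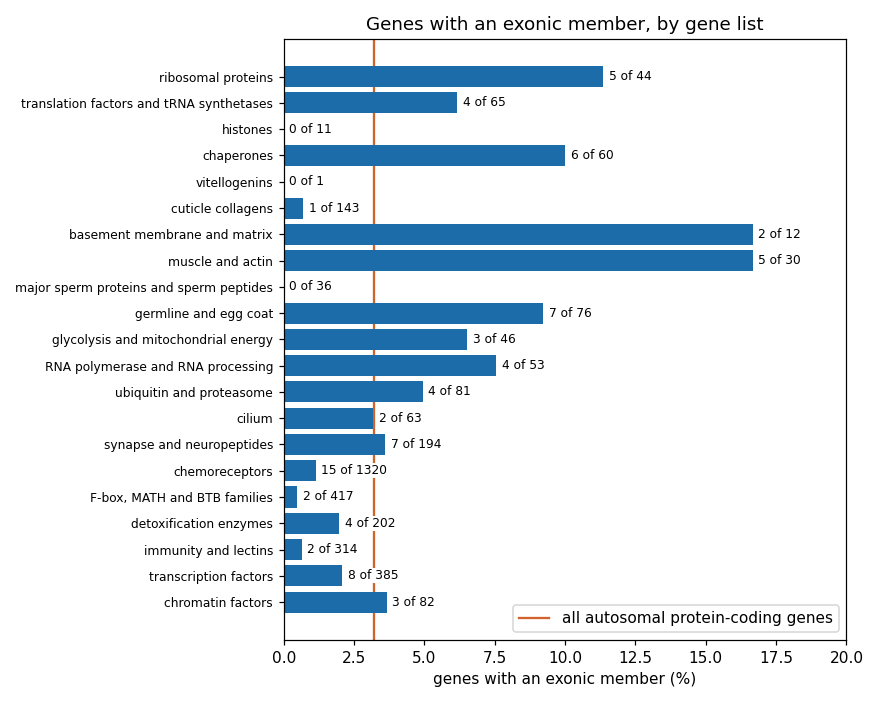
Share of genes with at least 1 exonic member in each of 21 gene lists, as bars with the counts beside them, on a scale from 0. The vertical line is the 3.21% of all autosomal protein-coding genes, with muscle, matrix, ribosomal protein and chaperone genes above it and chemoreceptor, F-box, collagen and immunity genes below it.

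The members were slightly richer in GC than the ranked exonic peaks that were not called. Over the summit and 100 bp to each side, coding members had a median GC of 40.8%, against 38.8% for not-called coding peaks and 39.8% for all open coding sequence. In 3' UTRs the medians were 34.8% for members, against 32.3% for not-called peaks and 32.3% for open sequence. Signal did not follow GC among the 508 members without a stronger overlap (Spearman's rho 0.01, across peaks of the same libraries).

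**Figure D5:**
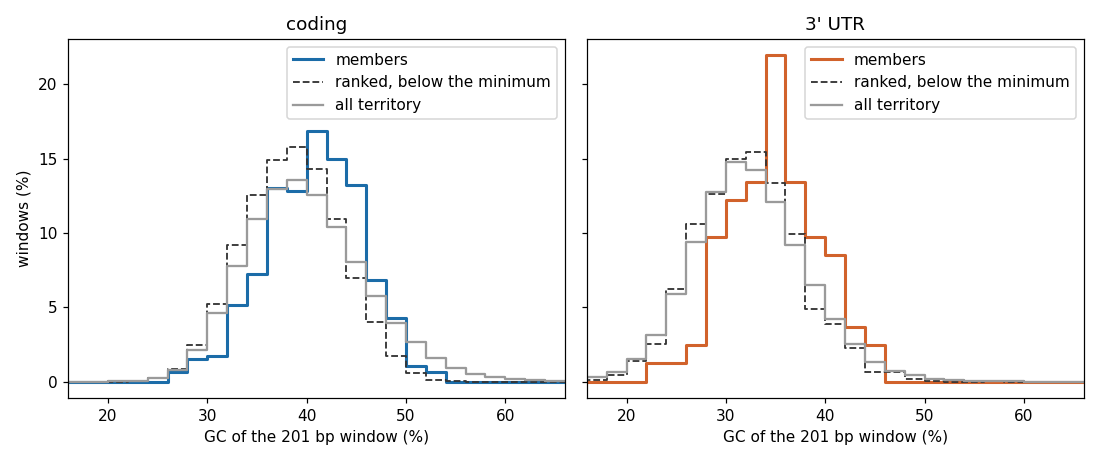
GC of the window of 100 bp to each side of the summit, as percent of windows per 2-point bin, for coding (left) and 3' UTR (right) sequence. Members (coloured), ranked peaks below the column 12 minimum (dashed) and all open territory (grey) largely coincide, with member medians of 40.8% and 34.8%.

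Repeated sequence was not common at the members. A further copy of at least 90% identity over 100 bp was found in the genome for 16 windows (2.89%, 95% Wilson interval 1.79 to 4.65), against 6.64% of grid windows (6.15 to 7.17). The most copied window lay in the 3' UTR of ekl-1, a gene of germline small RNA pathways, with 13 further copies. The actin gene act-2 had 3, the closest of them in act-3 at 94.03% identity, and the shoulder in ubq-1 also had 3. Whether reads from such copies were assigned to the right one is unknown, because the alignment and filtering of reads are not stated.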

How the data were processed

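Peaks of 2 replicates and of both together were read from ranked and thresholded lists on assembly ce11. Column 7 of each list is the peak signal as deposited by the authors, with no statement of its scaling to depth or control. Column 12 of the ranked lists is the −log10 of the IDR as deposited. How reads were aligned and filtered and which caller made the peaks is not stated in these sources. Another 8 columns were not used.

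Summits were placed on the Ensembl release 115 annotation of WBcel235, whose sequence lengths hold every peak. Where transcripts disagreed, coding sequence took precedence over 3' UTR, and that over 5' UTR. The signal of a replicate at a member is that of its strongest ranked peak over the summit. Territory is every autosomal base that the selection leaves open. Composition, motifs and copies were read in the summit base and 100 bp to each side, and set beside windows every 2000 bp of open exonic sequence. Copies were found with blastn 2.17.0 at a word size of 11, over at least 100 bp. Intervals are Wilson intervals at 95%. They treat peaks as independent, which neighbours are not.

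The members and the 21 gene lists, defined by gene symbol, were chosen with earlier results of these data known, so shares and medians are descriptions and no test was made. Genes named are the hosts of the 12 strongest coding and 8 strongest 3' UTR members, genes with 2 or more members, up to 4 hosts per gene list, the 3 peaks on each side of the minimum, and the members with the most copies, motif matches or unequal replicates. Other names are marked as chosen after their values were seen. The placement of summits and motif search were tested on simulated data. Computation used scipy 1.17.1, numpy 2.4.6 and pandas 2.3.3 under Python 3.11.15, with matplotlib 3.10.9 for the figures.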

Additional observations from a re-analysis of the deposited data

How the results depend on the processing

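Each of 8 summary values was recomputed under the alternatives, and 53 of the 77 recomputed values stayed close to the reported one. Close meant within a factor of 1.5 for a count, and inside the 95% interval of the reported value for a share or median. Alternatives that kept 524, 537 or 548 of the 553 members left most values little room to move, so this tally is not a measure of robustness. With the other ranked list for both replicates, 93.8% of members had both replicates ranked and 20.9% lay in the gene lists, and 362 of its 530 members lay within 100 bp of a member described above (68.3%). A column 12 of 2 or more left 109 members, 86 of them coding (78.9%), with a median signal of 112 and 27.5% in the lists. Merging overlapping members left 524, of which 94.7% had both replicates ranked. By construction it took out the 29 shoulders whose stronger neighbour was a member, and kept the shoulders of other called peaks. A promoter window of 2000 bp before to 500 bp after the start left 358 members, 296 of them coding, and took out 4 of the 20 strongest, the strongest of all in lelo-2 included. Read at 80% identity, 7.05% of windows had a further copy, and when a thresholded peak of each replicate was required over the summit, 0.362% of members had both.

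Calls from 1 replicate's own list gave 110 to 126 members, 82 to 92 of them coding (73.02% to 74.5%), median signals of 57.5 to 62.1, 0% to 4.76% with a further copy, median GC of 39.3% to 40.3%, and 19.8% to 24.5% in the lists. Without replicate 1, 50 of 110 lay within 100 bp of a member described above, and without replicate 2, 68 of 126. The cause of these shifts was not tested. No paired analysis was possible because there is 1 group and no result comes from a test. Depth is unknown, so a replicate without a ranked peak is not shown to lack signal.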
